A study of Mus musculus with 6 samples.

Results

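Immediate early genes are genes whose transcription starts within minutes of a stimulus, without new protein synthesis. The group described here is 10 of them, Fos, Fosb, Fosl2, Jun, Junb, Jund, Egr1, Egr2, Ier2 and Ier3, chosen by name from the 22098 gene symbols of a deposited expression table. All 10 were in the table, each as a single transcript, and all 10 were among the 10943 genes whose average over the libraries reached 1 RPKM (a read number scaled to the transcript's length and the library's total). RNA came from proB cells, the early B-lymphocyte progenitors of bone marrow, sorted from C57BL/6 mice aged 6 to 7 weeks. The 3 genotypes were Ikaros ZnF4-/- and Ikaros ZnF1-/-, which by their labels are homozygous for a mutation of zinc finger 4 or zinc finger 1 of the transcription factor Ikaros, and wild type (wt). Each genotype gave 1 library of pooled Hardy fractions C and C' (called fraction C), the later stage, and 1 of fraction B, the earlier stage, which makes 6 libraries. No genotype and fraction has a second library, and the labels do not say how many animals entered each. The libraries are called ZnF4, ZnF1 or wt with their fraction.

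Immediate early transcription is switched on by kinase cascades that act on factors already present, among them the serum response factor with its ternary complex partners and CREB. The transcripts are unstable, so their level follows recent signalling. Fos and Jun proteins pair through leucine zippers to form AP-1, which binds DNA. Egr proteins bind GC-rich sites through zinc fingers. In early B cells, antigen receptor and cytokine signals induce such genes. They are also known to be induced while tissue is dissociated and cells are sorted, and to be abundant in activated granulocytes and monocytes.

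Proximal promoter sequence is shown for Fos and Egr2, which hold matches to sites of the signalling factors named above, and for Jun and Jund, the 2 members whose level in the ZnF1 library of fraction C was not 2-fold above every other library. The windows are the 250 bases before the transcription start, from RefSeq on GRCm38.p6, while mm9 is the build named for the expression values, so coordinates are not carried between them. They lie at chr12:85473640-85473889 (plus strand, Fos), chr10:67537619-67537868 (plus strand, Egr2), chr4:95052223-95052472 (minus strand, Jun) and chr8:70697489-70697738 (plus strand, Jund). Capitals mark matches to the motifs named after the sequences.
Fos: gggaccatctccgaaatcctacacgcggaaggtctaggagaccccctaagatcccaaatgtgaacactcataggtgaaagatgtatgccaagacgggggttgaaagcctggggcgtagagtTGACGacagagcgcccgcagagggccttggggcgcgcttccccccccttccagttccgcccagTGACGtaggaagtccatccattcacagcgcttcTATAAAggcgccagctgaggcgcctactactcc
Egr2: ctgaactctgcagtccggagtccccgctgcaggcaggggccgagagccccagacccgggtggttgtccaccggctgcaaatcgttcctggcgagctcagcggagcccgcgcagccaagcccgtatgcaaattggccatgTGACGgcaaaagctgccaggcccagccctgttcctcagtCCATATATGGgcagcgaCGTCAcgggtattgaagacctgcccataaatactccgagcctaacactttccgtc
Jun: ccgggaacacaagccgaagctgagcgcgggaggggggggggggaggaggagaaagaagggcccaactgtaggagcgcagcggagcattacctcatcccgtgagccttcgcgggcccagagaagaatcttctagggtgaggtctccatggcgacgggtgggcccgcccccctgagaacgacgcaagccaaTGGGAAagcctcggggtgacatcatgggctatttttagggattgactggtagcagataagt
Jund: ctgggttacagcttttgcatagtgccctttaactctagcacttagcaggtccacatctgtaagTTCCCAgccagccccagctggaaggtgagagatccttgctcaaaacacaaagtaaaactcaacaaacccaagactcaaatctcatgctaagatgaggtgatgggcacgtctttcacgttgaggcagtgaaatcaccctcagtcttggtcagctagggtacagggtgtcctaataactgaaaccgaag

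Windows were available for 8 of the 10 genes. Members are counted by gene, with a match in any of its windows, while percentages are of single windows. Egr2 has several windows, some of them overlapping, so the counts and percentages are not like for like. The CRE half-site TGACG, searched on both strands, was in a window of 4 of the 8 (Fos, Fosb, Junb and Egr2) and in 17.8% of all 32851 windows. In Fos it began 129 and 66 bases before the start, and the TATA box TATAAA, searched on the gene's strand, began 33 bases before it. TATAAA was in 7.59% of all windows and in no window of the other members that had one. The CArG box, the serum response factor's site, was in 1.47% of all windows. Among the 8 genes with windows it was in those of Egr2 alone, 72 bases before the start in the window shown. The Egr site GCGNGGGCG (both strands) was in Fosb and Fosl2 and in 4.70% of all windows, and the AP-1 site TGANTCA (both strands) was in 0 of the 8 and in 6.75% of all. The core TGGGAA (both strands), which Ikaros can bind, was in Jun, 61 bases before the start, and in Jund, 187 bases before it, and in 21.6% of all windows. No match in the windows shown overlapped another, and a match is a description of letters, not of binding.

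Most of the genes had their highest level in the ZnF1 library of fraction C, with Jund as the exception. In the ZnF4 libraries 6 of the 10 were below wt in both fractions, a count not far above the 45.4% of all genes tested that were. Facts of the series that bear on these levels come before them. All 18 proB markers were above 0 in every library, and Igll1, which encodes a part of the surrogate light chain, was between 475.5 and 1396.2 RPKM. Some were low in part of the libraries. Dntt, the polymerase gene of antigen receptor joining, was at 25.7 RPKM in ZnF4 and 335.4 RPKM in wt in fraction C, and at 18.7 RPKM in ZnF4 and 568.7 RPKM in wt in fraction B. Enpep, a surface peptidase gene, was at 1.1 to 3.5 RPKM in the libraries of fraction B. The ZnF1 library of fraction C stood apart. Its 24 granulocyte and monocyte markers summed to 45094.2 RPKM, against 1062.3 to 4033.5 RPKM in the other 5 libraries, and its 18 proB markers summed to 2762.2 RPKM, against 3699.1 to 6173.5 RPKM. The wt libraries also differed from all 4 mutant libraries in sex: Xist, which coats the silenced X chromosome and whose reads cannot be told apart from those of its antisense partner Tsix without strand, was listed at 0 in the mutants and at 91.9 and 81.3 RPKM in wt, while the Y-linked Ddx3y was at 11.9 to 15 RPKM in the mutants and listed at 0 in wt. Sex and genotype cannot be told apart in the comparisons with wt, and both mutants are set against the same 2 wt libraries. In bulk RNA, fewer cells of a type and less RNA per cell cannot be told apart either.

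Fos, the founding partner of Jun in AP-1, was at 10.4 RPKM in ZnF4, 201.6 RPKM in ZnF1 and 16.2 RPKM in wt in fraction C. In fraction B it was at 12.9 RPKM in ZnF4, 5.4 RPKM in ZnF1 and 25.6 RPKM in wt. ZnF1 thus held the highest Fos level in fraction C and the lowest in fraction B, and ZnF4 was below wt in both. On the log2(RPKM + 1) scale, which understates changes of low values and on which every difference below is given, ZnF4 minus wt was -0.59 in fraction C and -0.94 in fraction B. ZnF1 minus wt was 3.56 in fraction C and -2.06 in fraction B.

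Fosb, a Fos relative induced with it, was at 0.3 RPKM in ZnF4, 12.1 RPKM in ZnF1 and 2.5 RPKM in wt in fraction C. In fraction B it was at 0.2 RPKM in ZnF4, 0.3 RPKM in ZnF1 and 2.8 RPKM in wt. Thus wt was above both mutants in fraction B and above ZnF4 in fraction C, and only ZnF1 of fraction C exceeded it. ZnF4 minus wt was -1.43 in fraction C and -1.66 in fraction B, and ZnF1 minus wt was 1.90 in fraction C and -1.55 in fraction B. Fos and Fosb were the members at least 2-fold below wt in fraction B and at least 2-fold above it in fraction C in the ZnF1 libraries, 2 of 10, against 0.777% of all genes tested. Whether the fractions differ in this could not be tested with 1 library each.

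Fosl2, which encodes Fra-2 and lacks the strong activation domain of Fos, was at 0.9 RPKM in ZnF4, 36.0 RPKM in ZnF1 and 2.0 RPKM in wt in fraction C. In fraction B it was at 0.5 RPKM in ZnF4, 1.9 RPKM in ZnF1 and 3.0 RPKM in wt. It shared the order of Egr1 in both fractions, with ZnF4 lowest, and differed from Fos in that ZnF1 in fraction B lay between ZnF4 and wt. ZnF4 minus wt was -0.66 in fraction C and -1.42 in fraction B, and ZnF1 minus wt was 3.62 in fraction C and -0.46 in fraction B.

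Jun, which pairs with Fos proteins or with itself, was at 12.3 RPKM in ZnF4, 24.1 RPKM in ZnF1 and 10.7 RPKM in wt in fraction C. In fraction B it was at 23.2 RPKM in ZnF4, 20.2 RPKM in ZnF1 and 19.5 RPKM in wt. The 3 libraries of fraction B and ZnF1 of fraction C lay close together, and ZnF4 and wt of fraction C lay below them. ZnF1 minus wt in fraction C was 1.10, and the other 3 differences between a mutant and wt were between 0.05 and 0.24.

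Junb, a Jun relative with weaker activating function, was at 6.3 RPKM in ZnF4, 43.5 RPKM in ZnF1 and 7.0 RPKM in wt in fraction C. In fraction B it was at 10.6 RPKM in ZnF4, 10 RPKM in ZnF1 and 7.8 RPKM in wt. Outside ZnF1 of fraction C the 5 libraries spanned 6.3 to 10.6 RPKM, and both mutants were above wt in fraction B. ZnF4 minus wt was -0.13 in fraction C and 0.40 in fraction B, and ZnF1 minus wt was 2.48 in fraction C and 0.32 in fraction B.

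Jund, the Jun family member that is expressed more steadily than the others and depends less on stimulation, went its own way. It was at 8.0 RPKM in ZnF4, 6.9 RPKM in ZnF1 and 5.5 RPKM in wt in fraction C. In fraction B it was at 18.7 RPKM in ZnF4, 20.8 RPKM in ZnF1 and 9.3 RPKM in wt. Fraction C was below fraction B in all 3 genotypes, with differences of -1.13 in ZnF4, -1.46 in ZnF1 and -0.66 in wt, and both mutants were above wt in both fractions. ZnF4 minus wt was 0.47 in fraction C and 0.94 in fraction B, and ZnF1 minus wt was 0.28 in fraction C and 1.08 in fraction B. ZnF1 of fraction C, where 9 of the 10 genes had their highest level, was 2.76-fold below the highest library for Jund.

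**Figure D1:**
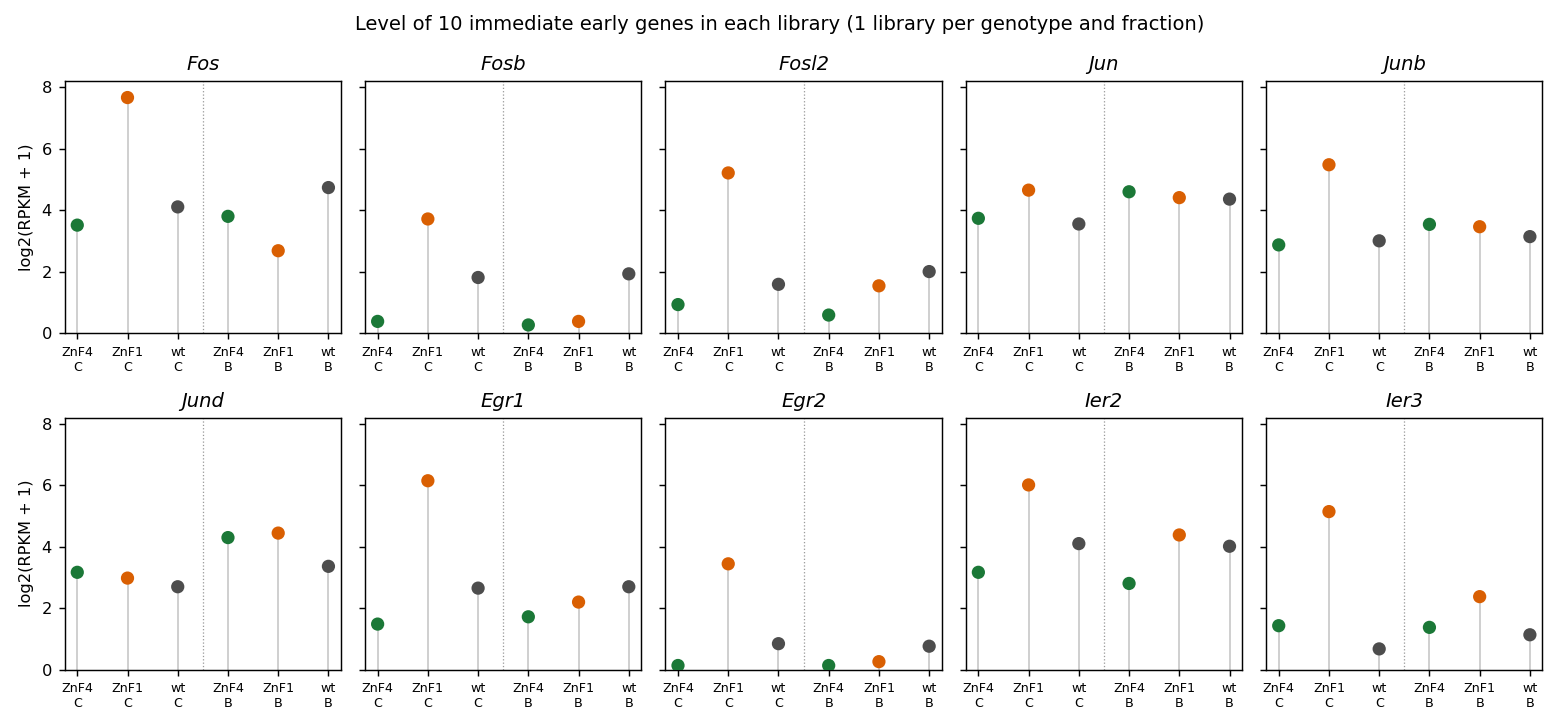
Level of each gene as log2(RPKM + 1) (vertical axis) in the 6 libraries (horizontal axis, ZnF4, ZnF1 and wt, fraction C left of the dotted line and fraction B right of it), 1 point per library with no error, since there are no replicates. The orange ZnF1 point of fraction C is the highest for 9 genes and exceeds the next by at least 2-fold for 8, and Jund is the exception. Egr2, among the 8, passed the filter on low values only through that library.

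The balance of Fos to Jun family transcripts differed widely between libraries. Summed RPKM of Fos, Fosb and Fosl2 was 11.6 in ZnF4, 249.7 in ZnF1 and 20.7 in wt in fraction C, and 13.6 in ZnF4, 7.6 in ZnF1 and 31.4 in wt in fraction B. Summed RPKM of Jun, Junb and Jund was 26.6 in ZnF4, 74.5 in ZnF1 and 23.2 in wt in fraction C, and 52.5 in ZnF4, 51 in ZnF1 and 36.6 in wt in fraction B. Fos family transcripts were thus fewer than Jun family transcripts per length in 5 libraries and outnumbered them in ZnF1 of fraction C. The ratio of the Fos sum to the Jun sum was 0.436 in ZnF4, 3.35 in ZnF1 and 0.892 in wt in fraction C, and 0.259 in ZnF4, 0.149 in ZnF1 and 0.858 in wt in fraction B. The wt libraries gave nearly the same ratio in both fractions, and ZnF4 was below wt in both. Within the Jun family, Jund made up 30.1% in ZnF4, 9.26% in ZnF1 and 23.7% in wt in fraction C, and 35.6% in ZnF4, 40.8% in ZnF1 and 25.4% in wt in fraction B. Junb made up 58.4% in ZnF1 of fraction C and 19.6% to 30.2% in the other 5 libraries. A ratio within a library does not change when the library is rescaled.

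**Figure D2:**
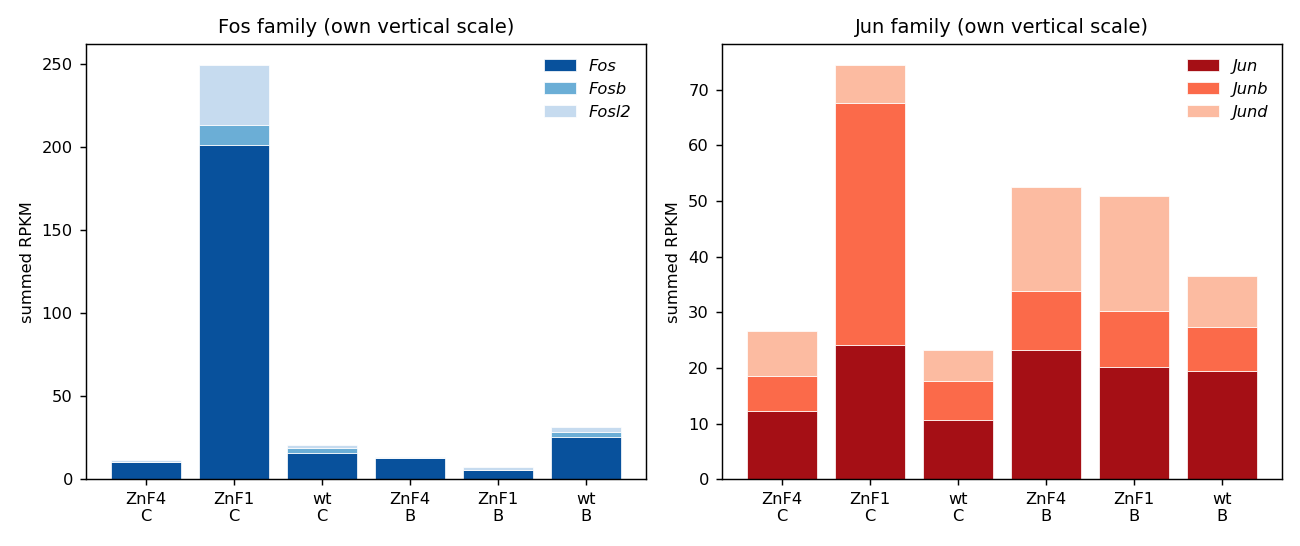
Summed RPKM of the Fos family (left, split into Fos, Fosb and Fosl2) and the Jun family (right, split into Jun, Junb and Jund) in each of the 6 libraries, 1 library per bar, with separate vertical scales that start at 0. The Fos family bar of ZnF1 in fraction C reaches 249.7 RPKM and the other 5 stay at or below 31.4 RPKM, while Jun family bars range from 23.2 to 74.5 RPKM.

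Egr1, a zinc finger factor induced by kinase signalling, was at 1.8 RPKM in ZnF4, 70.0 RPKM in ZnF1 and 5.3 RPKM in wt in fraction C. In fraction B it was at 2.3 RPKM in ZnF4, 3.6 RPKM in ZnF1 and 5.5 RPKM in wt. The wt libraries were alike, ZnF4 was the lowest library in both fractions, and ZnF1 lay between ZnF4 and wt in fraction B and far above both in fraction C. ZnF4 minus wt was -1.17 in fraction C and -0.98 in fraction B, and ZnF1 minus wt was 3.49 in fraction C and -0.50 in fraction B.

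Egr2, an Egr1 relative also known as Krox20, was at 0.1 RPKM in ZnF4, 9.9 RPKM in ZnF1 and 0.8 RPKM in wt in fraction C. In fraction B it was at 0.1 RPKM in ZnF4, 0.2 RPKM in ZnF1 and 0.7 RPKM in wt. Outside ZnF1 of fraction C it stayed under 1 RPKM, so it passed the filter on low values only through that library. ZnF4 minus wt was -0.71 in fraction C and -0.63 in fraction B, and ZnF1 minus wt was 2.60 in fraction C and -0.50 in fraction B. Egr2 is the only member that overlaps another RefSeq gene, Gm32255, and whether counting used strand is not given in the sources used here, so reads of the pair cannot be told apart.

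Ier2, a small early protein that lacks a well-defined DNA-binding domain, was at 8.0 RPKM in ZnF4, 63.6 RPKM in ZnF1 and 16.2 RPKM in wt in fraction C. In fraction B it was at 6.0 RPKM in ZnF4, 19.9 RPKM in ZnF1 and 15.2 RPKM in wt. ZnF4 was the lowest and ZnF1 the highest of the 3 genotypes in both fractions, an order no other member showed in both. ZnF4 minus wt was -0.93 in fraction C and -1.21 in fraction B, and ZnF1 minus wt was 1.91 in fraction C and 0.37 in fraction B. Between the mutants, ZnF4 minus ZnF1 was -2.84 in fraction C and -1.58 in fraction B.

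Ier3, also called IEX-1, which modulates apoptosis and kinase signalling, was at 1.7 RPKM in ZnF4, 34.4 RPKM in ZnF1 and 0.6 RPKM in wt in fraction C. In fraction B it was at 1.6 RPKM in ZnF4, 4.2 RPKM in ZnF1 and 1.2 RPKM in wt. Unlike Ier2, it was lowest in wt in both fractions. ZnF4 minus wt was 0.75 in fraction C and 0.24 in fraction B. ZnF1 minus wt was 4.47 in fraction C, a 22.1-fold difference and the largest among the members, and 1.24 in fraction B.

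Set against wt in fraction C, ZnF1 held 9 of the 10 genes at least 2-fold higher and 0 lower, where 12.6% of all genes tested were that much higher and 7.39% lower. The members' median difference was 2.54, beside -0.16 over all genes tested. For 8 of the 10 (all but Jun and Jund), ZnF1 of fraction C was at least 2-fold above the highest of the other 5 libraries, against 7.76% of all genes tested. Egr2 is in both counts and passed the filter on low values only through ZnF1 of fraction C. Genes that passed the same way are also in the shares over all genes tested. In fraction B, ZnF1 held Jund and Ier3 at least 2-fold higher than wt and Fos and Fosb at least 2-fold lower, 2 of 10 each way, against 2.07% and 2.21% of all genes tested. With libraries rescaled on 10 B-lineage genes, 0 were at least 2-fold higher. The median there was -0.21, beside 0.04 over all genes. The pattern of ZnF1 in fraction C was not present in fraction B of the same genotype.

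Set against wt, ZnF4 held 0 of the 10 genes at least 2-fold higher in either fraction, where 3.55% of all genes tested were higher in fraction C and 3.7% in fraction B. At least 2-fold lower were Fosb and Egr1 in fraction C, 2 of 10 against 6.12% of all genes tested, and Fosb, Fosl2 and Ier2 in fraction B, 3 of 10 against 9.81%. The members' median was -0.63 in fraction C, beside -0.05 over all genes, and -0.78 in fraction B, beside -0.09. Fos, Fosb, Fosl2, Egr1, Egr2 and Ier2 were below wt by any amount in both fractions, 6 of 10, not far above the 45.4% of all genes tested. Jun, Jund and Ier3 were above wt in both, and Jun alone changed sides when libraries were rescaled on 10 B-lineage genes.

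**Figure D3:**
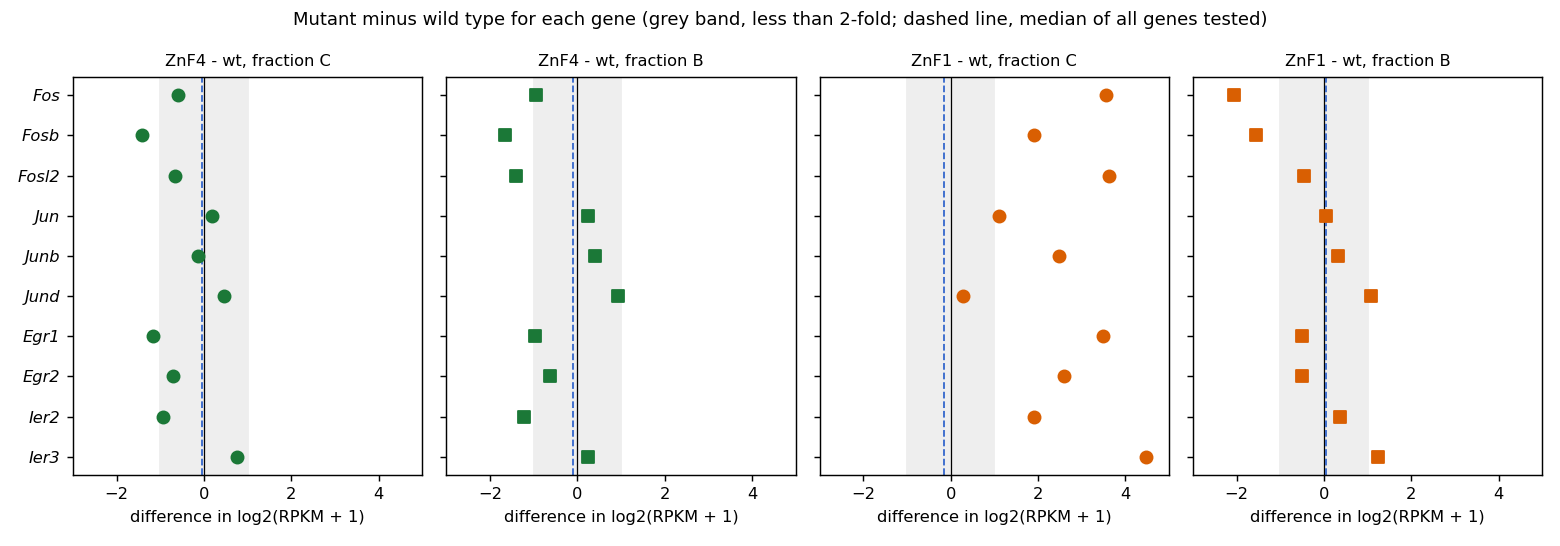
Difference in log2(RPKM + 1) between mutant and wt (horizontal axis) for each gene (rows), in 4 panels: ZnF4 in fractions C and B, then ZnF1 in fractions C and B. Each point is 1 pair of libraries, with no replicate error, the grey band spans less than 2-fold and the dashed line is the median of all genes tested. Nearly all ZnF1 points of fraction C lie right of the band, up to 4.47 for Ier3, while ZnF4 points lie between -1.66 and 0.94.

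Between the mutants, ZnF4 minus ZnF1 had a members' median of -3.32 in fraction C, with 0 genes at least 2-fold higher and 8 lower, against 7.41% and 14.1% of all genes tested. In fraction B the median was -0.14, with 1 gene, Fos, at least 2-fold higher and 2, Ier2 and Ier3, at least 2-fold lower, against 4.95% and 10.9%. Between the stages, fraction C minus B in ZnF4 had 0 members at least 2-fold higher and 1, Jund, lower, against 2.76% and 0.585% of all genes tested. In ZnF1, 8 members were at least 2-fold higher in fraction C and 1, Jund, lower, against 10.1% and 4.16%. Both counts of 8 hold Egr2, which passed the filter only through ZnF1 of fraction C. In wt, 0 of the 10 were 2-fold apart in either direction, against 0.338% and 1.01%, and their differences ran from -0.81 for Jun to 0.09 for Ier2. Jun differed by -0.86 in ZnF4 and by 0.24 in ZnF1.

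A model over all genes (limma on log2(RPKM + 1), genotype and fraction as additive terms, Benjamini-Hochberg adjusted p under 0.05) took its spread from genotype effects that differ between the fractions. With all 6 libraries it called 0 of the 10 genes in any comparison. It called 0.0274% of all genes tested for ZnF4 against wt, the same percentage for ZnF1 against wt, 1.82% for ZnF4 against ZnF1 and 0.0% for fraction C against B. At an unadjusted p under 0.05 stood 1, 3, 2 and 1 members in the same order, and 1930, 1018, 2489 and 511 genes. The genes that passed the adjusted threshold against wt were Xist, Tsix and the Y-linked Eif2s3y for both mutants, and sex differs in these comparisons. Nearest to passing was Ier2 for ZnF4 against ZnF1, at -2.21 (SE 0.42, limma adjusted p = 0.0804). Ier3 for ZnF1 against wt was at 2.85 (SE 0.85, limma adjusted p = 0.506), and Jund for fraction C against B at -1.09 (SE 0.21, limma adjusted p = 0.854).

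Leaving ZnF1 of fraction C out of that model changed the calls. For ZnF4 against wt 6 of the 10 genes then passed, against 31.6% of all genes tested. Fosb fell by 1.55 (SE 0.21, limma adjusted p = 0.0108), Egr1 by 1.07 (SE 0.16, 0.0131), Ier2 by 1.07 (SE 0.13, 0.00903), Fosl2 by 1.04 (SE 0.25, 0.0389) and Fos by 0.76 (SE 0.13, 0.0188), and Jund rose by 0.70 (SE 0.16, 0.0315). Each of the 6 was lower, or for Jund higher, in 2 of 2 pairs of libraries. Egr2 at -0.67 (limma adjusted p = 0.0804), Jun, Junb and Ier3 did not pass. For ZnF4 against ZnF1, Fos rose by 1.20 (SE 0.18, limma adjusted p = 0.0161) and Ier2 fell by 1.51 (SE 0.17, 0.0102), 2 of 10 against 24.6% of all genes tested. For ZnF1 against wt 0 of 10 passed, against 0.146% of all genes tested, and 4 of 10 members and 2042 of 10943 genes stood at an unadjusted limma p under 0.05. Leaving out ZnF1 of fraction B instead gave the same 6 calls for ZnF4 against wt, against 30.8% of all genes. It also gave 9 of 10, all but Jund, for ZnF1 against wt (37.6% of all genes) and for ZnF4 against ZnF1 (37.5%). Both fits leave 1 residual degree of freedom, which comes from ZnF4 and wt alone. The single remaining ZnF1 library is assumed to vary like them, and none of these calls held with all 6 libraries. Over 12 alternatives, each of the 6 genes passed for ZnF4 against wt in these 2 fits, and the limma adjusted p ran from a lowest value between 0.00903 (Ier2) and 0.0350 (Fosl2) up to 1. The estimate for ZnF4 against wt changed sign for 3 of the 6 when another library was left out. Fos was at 0.72 without wt of fraction B and 0.47 without ZnF4 of fraction C, Fosl2 at 0.17 without wt of fraction B, and Egr1 at 0.02 without ZnF4 of fraction C.

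The markers of other marrow cells moved with several of these values and not with others. In ZnF1 against wt in fraction C, 24 of 24 granulocyte and monocyte markers were at least 2-fold higher (median 3.71), their sum was 16.0-fold that of wt, and the members' sum was 7.52-fold that of wt. Also at least 2-fold higher were 14 of 14 erythroid markers (median 3.86), 6 of 9 plasmacytoid dendritic, 3 of 6 T-cell and 2 of 9 natural killer (NK) markers that passed the filter. That much higher were 12.6% of all genes tested. The plasmacytoid dendritic list summed to 321.3 RPKM in ZnF1 and 173.5 RPKM in wt in fraction C, and to 325.9 RPKM and 257.1 RPKM in fraction B. From fraction B to C, 0 of its 9 markers were at least 2-fold higher in ZnF1, against 10.1% of all genes tested. In wt, 6 of 9 were at least 2-fold lower in fraction C, against 1.01%. The granulocyte and monocyte markers Cd14 and Cebpa, the T-cell markers Cd3d, Cd3g and Cd8a and the NK marker Gzmb passed the filter only through ZnF1 of fraction C. The T-cell marker Lat was at least 2-fold lower, at 5.7 RPKM in ZnF1 and 17.8 RPKM in wt. The summed level of the erythroid list was 4553.8 RPKM in ZnF1 of fraction C and 129.4 to 345.7 RPKM elsewhere. In ZnF4 against wt, where 6 members were lower, granulocyte and monocyte markers were at least 2-fold lower for 8 of 24 in fraction C (sums of 1825.7 RPKM in ZnF4 and 2821.5 RPKM in wt) and for 20 of 24 in fraction B (1062.3 RPKM in ZnF4 and 4033.5 RPKM in wt). NK markers were at least 2-fold lower for 8 of 9 in fraction C and 9 of 9 in fraction B. Erythroid markers were so for 4 of 14 in fraction C and 12 of 14 in fraction B. Plasmacytoid dendritic markers were so for 4 of 9 and 6 of 9, while Tlr9 among them was at least 2-fold higher in both. At least 2-fold lower were 6.12% of all genes tested in fraction C and 9.81% in fraction B. In ZnF1 of fraction B, where Fos and Fosb were lower, 22 of 24 granulocyte and monocyte markers were below wt by any amount. At least 2-fold lower were 8 of them, against 2.21% of all genes tested. The sums were 1788.3 RPKM in ZnF1 and 4033.5 RPKM in wt. Defining markers such as S100a9, a neutrophil calcium-binding protein, and Lyz2, a lysozyme, were above 0 in every library, and 0 of the 24 were at 0 in any. S100a9 was at 684.3 RPKM in ZnF4, 18584.6 RPKM in ZnF1 and 870.3 RPKM in wt in fraction C, and at 385.2 RPKM in ZnF4, 648.9 RPKM in ZnF1 and 1288.6 RPKM in wt in fraction B. Other values went the other way. From fraction B to C in ZnF4, 22 of 24 granulocyte and monocyte markers were higher. Their sum in fraction C was 1.72-fold that in fraction B, while the members' sum was 0.654-fold. In ZnF1 of fraction B, Jun, Junb, Jund, Ier2 and Ier3 were above wt. In ZnF4, Jun, Jund and Ier3 were above wt in both fractions. The part of RNA from such cells in the members' values was not tested.

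Heat shock genes mark another response that stress and handling can induce. In ZnF1 against wt in fraction C, 2 of 11 were at least 2-fold higher, against 12.6% of all genes tested, with a median of 0.12. The 2 were Hmox1, heme oxygenase, at 57.8 RPKM in ZnF1 and 5.4 RPKM in wt, and the chaperone gene Dnajb4, at 17.1 RPKM in ZnF1 and 6.2 RPKM in wt. Hspa1a and Hspa1b, the inducible Hsp70 genes, were at 0.1 to 1.3 RPKM in every library, and as near-identical copies their values are uncertain. In ZnF4 against wt, 4 of 11 heat shock genes were at least 2-fold lower in fraction C, against 6.12% of all genes tested. In fraction B 3 of 11 were, against 9.81%. The medians were -0.52 and -0.75, beside the members' -0.63 and -0.78. By any amount, 10 of 11 were below wt in fraction C and 11 of 11 in fraction B. The part of handling in the members' values was not tested.

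Other genes of the early response were described from lists. In ZnF1 against wt in fraction C, 12.6% of all genes tested were at least 2-fold higher and 7.39% lower, the background of the counts that follow. Of 15 further early transcription factors that passed the filter, 7 were at least 2-fold higher and 1 lower in ZnF1 against wt in fraction C (median 0.89). Nr4a1, an orphan nuclear receptor, was at 49.4 RPKM in ZnF1 and 8.4 RPKM in wt, and Nfil3, a basic zipper factor, at 16.7 RPKM in ZnF1 and 1.3 RPKM in wt. The lower one was Myc, the growth regulator, at 22.5 RPKM in ZnF1 and 91.7 RPKM in wt. Of 8 other basic zipper partners, 3 were at least 2-fold higher and 0 lower: Atf3, which is induced by stress, was at 11.9 RPKM in ZnF1 and 1.1 RPKM in wt, and Jdp2, a repressor that pairs with Jun, was at 23.7 RPKM in ZnF1 and 3.8 RPKM in wt. The third was Mafg, a small Maf gene. Atf3, and Egr3 among the 7 transcription factors, passed the filter only through ZnF1 of fraction C. Elsewhere Atf3 was at 0 to 1.1 RPKM and Egr3 at 0.1 to 1.1 RPKM. Of 24 early signalling and RNA decay genes, 12 were at least 2-fold higher and 0 lower (median 0.96). Ppp1r15a, which restores translation after stress, was at 88.6 RPKM in ZnF1 and 9.0 RPKM in wt, and the kinase gene Plk3 at 17.1 RPKM in ZnF1 and 1.2 RPKM in wt. Feedback inhibitors were at least 2-fold higher for 2 of 11 (median -0.31), among them Dusp1, a phosphatase of MAP kinases, at 104.5 RPKM in ZnF1 and 12.1 RPKM in wt. The kinases and factors upstream of the response were at least 2-fold higher for 3 of 26 (median -0.21), near the 12.6% of all genes tested.

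In ZnF4 against wt the lists differed among themselves. Over all genes tested, 3.55% were at least 2-fold higher and 6.12% lower in fraction C. In fraction B 3.7% were higher and 9.81% lower. The basic zipper partners were at least 2-fold higher for 0 of 8 and lower for 3 in fraction C, and higher for 0 and lower for 2 in fraction B. Feedback inhibitors were higher for 0 of 11 and lower for 2 in each fraction. Early signalling and RNA decay genes were at least 2-fold higher for 7 of 24 and lower for 2 in fraction C, and higher for 6 and lower for 2 in fraction B. Plk2, a kinase gene, was at 27.8 RPKM in ZnF4 and 2.6 RPKM in wt in fraction C and at 35.9 RPKM in ZnF4 and 5.2 RPKM in wt in fraction B. Btg1, which restrains proliferation, was at 33.5 RPKM in ZnF4 and 7.7 RPKM in wt in fraction C and at 51.5 RPKM in ZnF4 and 14.7 RPKM in wt in fraction B. So early genes were found on both sides of wt. Rhob, a small GTPase gene, was at 2.9 RPKM in ZnF4 and 9.5 RPKM in wt in fraction C and at 2.9 RPKM in ZnF4 and 11.5 RPKM in wt in fraction B. Among transcription factors, 1 of 15 was at least 2-fold higher in each fraction, Klf2, a regulator of lymphocyte quiescence, while 2 were lower in fraction C and 4 in fraction B. Myc had the most negative difference in both, at 11.3 RPKM in ZnF4 and 91.7 RPKM in wt in fraction C and 5.5 RPKM in ZnF4 and 48.7 RPKM in wt in fraction B. Dusp1 was at 5.3 RPKM in ZnF4 and 12.1 RPKM in wt in fraction C and at 3.3 RPKM in ZnF4 and 15.3 RPKM in wt in fraction B. The upstream list was at least 2-fold apart for 0 of 26 in fraction C and 1 of 26 in fraction B.

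**Figure D4:**
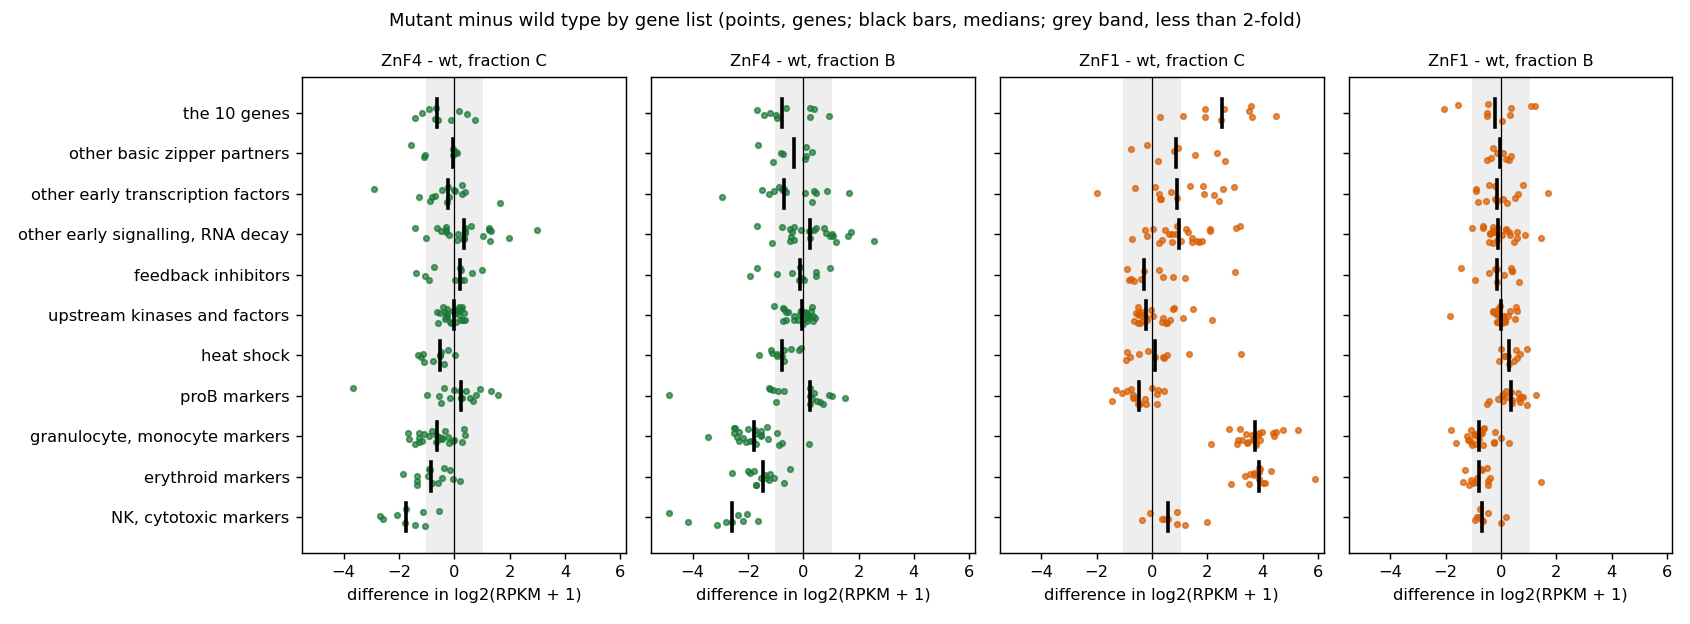
Difference in log2(RPKM + 1) between mutant and wt (horizontal axis) for the genes of 11 lists (rows) in 4 panels, ZnF4 in fractions C and B and ZnF1 in fractions C and B, with 1 point per gene, black bars at the medians and the grey band spanning less than 2-fold. In ZnF1 of fraction C the median of the 10 genes (2.54) lies between 2 sets of medians. Those of the other early genes are lower (0.87 to 0.96), and those of the granulocyte, monocyte and erythroid markers are higher (3.71 and 3.86). The points of these lists overlap, and the heat shock median is at 0.12.

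Across the 6 libraries, which share their fractions and genotypes, 8 members followed the mean of the other 9 with Pearson r of 0.86 to 0.99, while Jun had r of 0.49 and Jund of -0.38. Much of this rests on 1 library. Without ZnF1 of fraction C, over 5 libraries, r was 0.82 for Egr1 and 0.78 for Fosl2, and 0.06 for Fos, -0.18 for Jund and -0.19 for Ier3. Among 3284 genes averaging at least 5 RPKM, with a range of at least 2-fold, the 5 most like the members' mean profile were 2610507I01Rik (r 0.999), Ppp1r15a (0.997), Mxd1, Prr13 and Cln3 (0.996 each). Over the 5 libraries without ZnF1 of fraction C, with the range taken over those 5 but the average of at least 5 RPKM still over all 6, they were among 2355 genes Oasl2 (0.988), Pqlc3 (0.984), Lrrk2 (0.977), Npc1 (0.970) and Gapt (0.967). Oasl2 and Gapt reached that average only through the library left out. The gene most like Fosl2 over 6 libraries was the erythropoietin receptor gene Epor (0.999), and that most like Ier3 was S100a11 (0.999). Both reached the average of 5 RPKM only through ZnF1 of fraction C. Epor was at 25.4 RPKM there and 0.3 to 2 RPKM elsewhere, and S100a11 at 57.9 RPKM there and 1.6 to 7.2 RPKM elsewhere. The gene most like Jund was the MAP kinase phosphatase gene Dusp2 (0.969), at 71.6 RPKM in ZnF4, 54.4 RPKM in ZnF1 and 46.1 RPKM in wt in fraction C and 98.5 RPKM in ZnF4, 112.1 RPKM in ZnF1 and 71.6 RPKM in wt in fraction B. These are descriptions of few points, without a test.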

How the data were processed

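RNA of 6 libraries, 1 per genotype and fraction, was prepared with Illumina TruSeq per the labels' protocols, and groups were taken from the titles. The values are RPKM per RefSeq transcript, which the authors made per the file headers and deposited rounded to 0.1. TopHat, bedtools and mm9 are named per the submitters' processing notes, without versions or roles. The denominator's reads, the strand setting and the treatment of reads common to several transcripts were not given in the sources used here.

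The table held 26532 entries, 1 without a gene name, which was left out, and 0 columns of other samples. Each symbol was represented by its transcript with the highest mean, and genes averaging at least 1 RPKM were kept (10943). Whole reads could not be recovered (16.7% to 27.0% of low values of short transcripts were whole, against 9.18% to 22.2% by chance), so depth is unknown and no counting interval is given. Differences are of log2(RPKM + 1), with 2-fold as the limit for counts. Across genes, limma 3.58.1 (R 4.3.3, lmFit and eBayes with trend, genotype plus fraction, 2 residual degrees of freedom, two-sided, Benjamini-Hochberg) was used. Its p-values measure only the spread between these libraries. It was run on simulated data with known changes, equal noise for every gene and no genotype effects that differ between fractions. The libraries here are not like that, so the run checks the calculation and not the calls. Alternatives were a pseudocount of 0.25, no filter, rescaling on the median of all genes or on 10 B-lineage genes, summed transcripts, a fold of 1.5, no variance trend and leaving out each library.

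Members, 18 gene lists and tests were chosen with earlier results of these data known. All members are named. From a list, up to 4 genes with the largest differences either way may be named, and likeness is Pearson r with the rule given beside it. Python 3.11.15, pandas 2.3.3 and matplotlib 3.10.9 were used.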

Additional observations from a re-analysis of the deposited data

Results flagged for a closer look

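In the ZnF1 libraries, Fos and Fosb lay on opposite sides of wt in the 2 fractions, by at least 1.5-fold in each. Fosl2, Egr1 and Egr2 also lay below wt in fraction B and above it in fraction C, but by less than 1.5-fold in fraction B. The difference from wt in fraction C minus that in fraction B was 5.61 for Fos and 3.45 for Fosb on the log2(RPKM + 1) scale. With 1 library for each genotype and fraction the difference was not tested. The granulocyte and monocyte markers lay on the same sides of wt, with sums of 45094.2 RPKM in ZnF1 and 2821.5 RPKM in wt in fraction C and of 1788.3 RPKM in ZnF1 and 4033.5 RPKM in wt in fraction B, and their part in the result was not tested.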

How the results depend on the processing

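Rescaling on 10 B-lineage genes moved the ZnF1 library of fraction C by 0.80 on the log2 scale and the ZnF4 library of fraction B by -0.34. The members' median then became 3.22 for ZnF1 against wt in fraction C, -4.12 for ZnF4 against ZnF1 in fraction C (-4.20 with a pseudocount of 0.25) and 3.89 for fraction C against B in ZnF1. No median changed sign under an alternative, and 32 of 36 moved little. Of 90 counts of members at least 2-fold apart, 14 moved. For ZnF4 against wt in fraction C, 1 was higher with a pseudocount of 0.25 or a fold of 1.5 and 6 were lower with a fold of 1.5. In fraction B, 1 was higher after rescaling on all genes or with a fold of 1.5, 5 were lower with a pseudocount of 0.25 or B-lineage rescaling and 6 with a fold of 1.5. With B-lineage rescaling 0 were higher for ZnF1 against wt in fraction B, 1 lower for ZnF4 against ZnF1 in fraction B (also 1 after rescaling on all genes) and 0 lower for fraction C against B in ZnF1. With a fold of 1.5, 3 were lower in fraction C than in B in ZnF4 and 3 in wt.

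Calls of the limma model over all genes changed most. For ZnF4 against wt they numbered 5 with a pseudocount of 0.25, 132 without a filter, 6 after rescaling on all genes, 0 after B-lineage rescaling, 6 without a variance trend and 0 to 3453 when a library was left out. For ZnF1 against wt they numbered 102 without a filter, 0 after B-lineage rescaling, 5 without a trend and 0 to 4116 when a library was left out. For ZnF4 against ZnF1 they numbered 97 without a filter, 355 after rescaling on all genes, 0 after B-lineage rescaling and 0 to 4109 when a library was left out. For fraction C against B there were 11 without a filter and 0 whenever a library was left out, with 116 to 2843 genes at an unadjusted p under 0.05. At B-lineage rescaling the unadjusted limma counts were 2285, 535 and 2848 for the 3 genotype comparisons. The limma estimates changed sign in at least 1 of 12 alternatives for 7 of the 10 members for ZnF4 against wt, 5 for ZnF1 against wt, 3 for ZnF4 against ZnF1 and 6 for fraction C against B. In 1 such case the estimate passed the threshold. For ZnF4 against ZnF1, Fos was -1.52 with all 6 libraries and ran from -4.24 to 1.20 when a library was left out, the positive value without ZnF1 of fraction C (limma adjusted p = 0.0161, and 0.00234 to 0.987 over 12 alternatives). The cause of these changes was not tested. No paired analysis was possible because each genotype and fraction has 1 library and the labels carry no replicate numbers, while fraction, which the genotypes share, is already a term of the limma model. Values of 0.1 to 0.3 RPKM, as for Fosb and Egr2, are near the rounding of 0.1.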
